A study of Mus musculus with 86 samples.

Results

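The decay of a pool of 3′ UTR reporter RNAs was followed over a 12 h chase in mouse cells that had lost the RNA-binding protein TDP-43. The comparison used 6 of the 86 samples of the series, the SLAM-seq libraries labelled plus doxycycline and 4-thiouridine (4SU) at 0 h and at 12 h, with 3 replicates at each time. The cells were CAD cells, a mouse catecholaminergic neuronal line, of the line called TetOff TDP-43, in which both conditions rely on a single transgene as the source of TDP-43. Doxycycline turns its promoter off, so plus dox is the knockout and minus dox the wild type. The paper describes the depletion as acute, after days and not weeks of doxycycline, and reports that cells died on extended treatment. Wild-type TDP-43 here thus comes from a transgene, the line was raised as a clone, knockout cells also carried the drug, and loss of TDP-43 and exposure to doxycycline cannot be told apart in these libraries. Wild-type cells with 4SU gave 2 libraries at 0 h and 3 at 12 h, and 3 libraries made without 4SU, all minus dox, gave the background. All libraries held the same transiently transfected plasmid pool, and nothing in the labels says that the replicates were separate cultures, so the p-values measure the spread between these libraries. In RNA-seq of the same line, Tardbp, the gene for TDP-43, had 884 ± 187 TPM (SD, n = 3) in soma of minus dox cells and 136 ± 22.1 TPM in soma of plus dox cells. The neuronal markers Tubb3 (471 and 441 TPM), Snap25 (266 and 195) and Stmn2 (280 and 176) were high in both, whereas the catecholamine synthesis genes Th (2.44 and 1.39), Ddc (0.887 and 0.838) and Dbh (15.3 and 43.8) were low.

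SLAM-seq measures how long RNA lasts. Cells take up 4SU and build it into new RNA in place of uridine, and when 4SU is replaced by plain uridine the labelled RNA is no longer made and disappears as it decays. Iodoacetamide alkylates the 4SU left in the RNA, so that reverse transcription reads it as C. The share of T positions read as C (the T>C rate) thus falls during the chase, faster for an RNA of short life than for a stable one. TDP-43 is a mostly nuclear protein that binds GU-rich RNA and acts on splicing, 3′ end formation, transport and stability of its targets. A 3′ UTR carries many of the sites, such as AU-rich elements and Pumilio sites, through which RNA-binding proteins set the life of an mRNA.

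Each reporter held an oligo of 260 nt from 1 of 16 mouse 3′ UTRs, with successive oligos starting 6 nt apart. Oligos with GU-rich motifs had a companion in which CACAC replaced GUGUG, while ACACA replaced UGUGU and CAUAC replaced GUAUG. The libraries held 11594 oligos in any SLAM-seq file, of which 10603 (91.5%) had 1000 or more T positions in each of the 6 knockout libraries and were tested. They comprised 2781 endogenous oligos without a motif, 3934 endogenous oligos with a motif and 3888 mutated companions, and they carried 99.9% of the T positions read.

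The stretches below belong to oligos named in the results, none of which passed its test, and to the motif matches described there. They are written as DNA, 5′ to 3′ on the strand of the mRNA, and come from the GENCODE transcripts on GRCm38, which gave sequences for 12 of the 16 UTRs. The first 5 carry the GU-rich motifs, shown in capitals, of oligos named for their pairs or for the comparison with wild type. The next 3, with AUUUA or UUUUU in capitals, come from oligos without such a motif that are named by the same rule. The last 2, with UGUANAUA in capitals, are Pumilio-type matches within UTR parts that lost much label.
Cacna1b oligo 314, chr2:24605009-24605038, minus strand: TGTGTGTGTGTGTGTGTGTGTGTGTGTGTG
Fam160b2 oligo 199, chr14:70583771-70583800, minus strand: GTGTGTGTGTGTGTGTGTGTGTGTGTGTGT
Tub oligo 415, chr7:109032838-109032867, plus strand: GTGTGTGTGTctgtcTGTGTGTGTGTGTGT
Lrrc47 oligo 64, chr4:154020210-154020239, plus strand: GctgtaggtgtcTGTGTGgGTGTGgGTGTG
Kank2 oligos 267 and 271, chr9:21767259-21767288, minus strand: gtggacggatgaGTGTGgggtgggtggatg
Sos2 oligo 27, chr12:69585053-69585082, minus strand: taaaggtttttaATTTAttcaaaaagacat
Kank2 oligo 114, chr9:21768297-21768326, minus strand: ccTTTTTcctttctctctctctctctctct
Ksr2 oligo 445, chr5:117768406-117768435, plus strand: aatcttgaactcTTTTTtttttttgttcgt
Ksr2, match at nt 8410 of the UTR, chr5:117773955-117773984, plus strand: tattatatatgTGTATATAcataaagacta
Sos2, match at nt 1243 of the tiled region, chr12:69584187-69584216, minus strand: tttatttatatTGTATATAtttaaagataa

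The 12 h libraries did not look alike. Knockout libraries held 10.8 M to 17.0 M reads, with M for 1e6 (15.0 M to 17.0 M at 0 h). Knockout 12 h replicates 2 and 3 and both wild-type 0 h libraries had 176 bases read per read and 0.0658% to 0.0801% of A positions read as T, against 182 bases and 0.0360% to 0.0467% in the other 7 labelled libraries. The C-read-as-T rate was 0.514% to 0.559% in all of them. No 2 libraries agreed within sampling noise, with a chi-square per degree of freedom of at least 2.90, found between knockout 0 h replicates 1 and 2. Knockout 12 h replicate 1 had 3.22 and 3.13 against these and 10.2 against 0 h replicate 3. Against 12 h replicates 2 and 3 it had 21.6 and 14.9, while those had 4.33 between them. In bases per read and A positions read as T, knockout 12 h replicate 1 had the values of the knockout 0 h libraries. These features thus follow neither genotype nor time as labelled, and no label names a run or batch. Whether any of these libraries carry each other's labels was not tested, nor was the part of the features in the results, so each value of knockout at 12 h and of wild type at 0 h rests on the labels as given. Each 12 h library is given apart.

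Reporter RNA lost 4SU label during the chase in every knockout library, and the loss was far smaller in 12 h replicate 1 than in replicates 2 and 3. The T>C rate pooled over all oligos of a library, tested or not, was 1.81%, 1.83% and 1.91% at 0 h (1.85% ± 0.0485, SD, n = 3). At 12 h it was 1.37% in replicate 1, 0.465% in replicate 2 and 0.511% in replicate 3 (0.782% ± 0.510). All 12 h libraries lay below all 0 h libraries, but the gap between replicate 1 and the other two was larger than the gap between replicate 1 and the 0 h libraries. The mean log2 change was −1.43, and 3 against 3 libraries allow no exact two-sided permutation p below 0.1, which was the p obtained. Libraries without 4SU had 0.244%, 0.194% and 0.164% (0.201% ± 0.0401), equal to 14.6% of the rate in knockout 12 h replicate 1 but 43.1% and 39.3% of the rates in replicates 2 and 3.

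With the rate without 4SU subtracted, the label kept at 12 h was 70.9% of the 0 h label in knockout replicate 1, 16.1% in replicate 2 and 18.8% in replicate 3. Wild-type cells fell from 1.94% and 1.93% at 0 h to 1.17%, 1.17% and 1.33% at 12 h, and kept 55.8%, 56.1% and 65.3%. Knockout replicate 1 thus kept more label than each wild-type library and replicates 2 and 3 kept less, so the libraries give no order between knockout and wild type in overall decay.

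**Figure D1:**
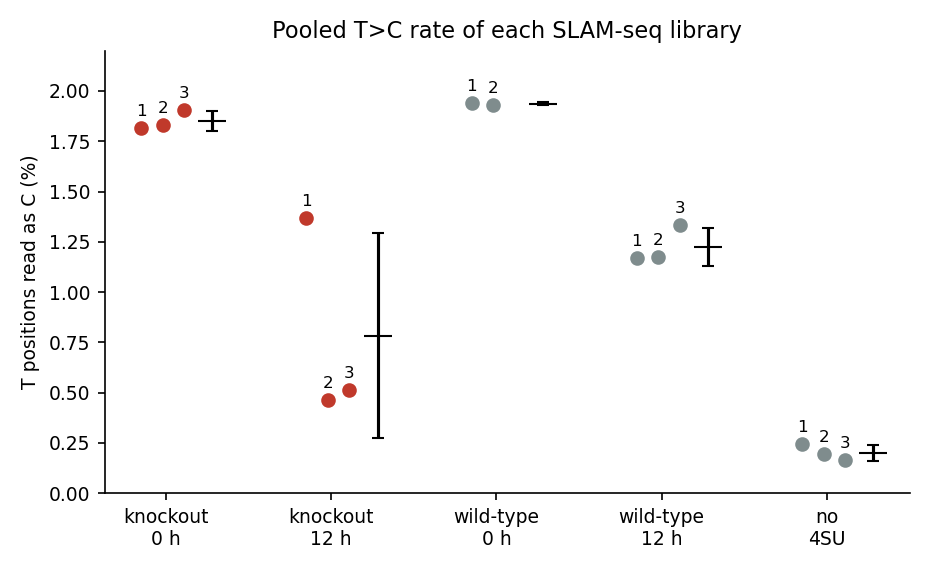
T>C rate in percent (y axis, from 0) pooled over all oligos in each SLAM-seq library, 1 point per library, by group (x axis) and numbered by replicate, with the group mean and SD beside them. The knockout 12 h libraries sit at 1.37%, 0.465% and 0.511%, between the 0 h libraries (1.81% to 1.91%) and the libraries without 4SU (0.164% to 0.244%).

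Oligo by oligo, 0 of the 10603 rose (0.0%) and 8422 fell (79.4%) in T>C rate from 0 h to 12 h by edgeR's quasi-likelihood test at an FDR of 0.05, with a median change of −1.51 on the log2 scale. The count that fell depended on which libraries were used. It was 10569 without 12 h replicate 1, where 1 oligo rose, and 0 without 12 h replicate 2, without 12 h replicate 3 or without any 0 h library. Replicate 1 kept a median of 70.1% of the label per oligo (5th to 95th percentile 55.2% to 83.8%), replicate 2 kept 13.5% (1.88% to 32.1%) and replicate 3 kept 16.5% (5.05% to 35.8%). The oligos thus spread over a wide range in the libraries with little label left. In replicate 2, 1001 oligos (9.44%) had a rate at or below that of the highest library without 4SU, as did 483 (4.56%) in replicate 3, 3 in replicate 1 and at most 1 at 0 h. For those oligos the remaining label was not detectable above background.

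To ask which reporters lost label faster or slower than the pool, each oligo's log2 change was taken relative to the median oligo of the same library. This removes the difference in level between libraries. It leaves the spread across oligos and the share of background in the rate, both of which differ between libraries. The size of a relative change is therefore not comparable between libraries that kept different shares of label. The relative change had a 5th to 95th percentile of −0.28 to 0.23 in replicate 1, −0.79 to 0.81 in replicate 2 and −0.71 to 0.75 in replicate 3. All 3 are taken against the same 0 h libraries, so their agreement with each other is not a measure of reproducibility.

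No oligo passed an FDR of 0.05 in either direction over the 3 against 3 libraries: edgeR called 0 higher (0.0%) and 0 lower (0.0%) of 10603, with 3177 at an unadjusted p below 0.05 and a lowest adjusted p of 0.106. By limma 0 passed and 3076 had an unadjusted p below 0.05, whereas DESeq2 called 638 higher and 373 lower. Without knockout 12 h replicate 1, edgeR called 2725 higher (25.7%) and 2263 lower (21.3%). The relative rates of the 12 h libraries lay all above those of the 0 h libraries for 2276 oligos (21.5%) and all below for 2006 (18.9%).

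The 3 oligos with the lowest p in each direction are given here although they did not pass. Fam219a oligo 312 (chr4:41518213-41518472, minus strand, 3′ UTR) had T>C rates of 1.83%, 1.82% and 1.94% at 0 h and of 2.16%, 0.830% and 0.845% at 12 h. It kept 119%, 34.0% and 35.0% of its label, above the median oligo in each library. Its mean relative change was 0.81 ± 0.08 (SE, n = 3 against 3, log2) with an adjusted p of 0.106 by edgeR. Kank2 encodes a scaffold that links adhesions to the cytoskeleton. Kank2 oligo 114 (chr9:21768067-21768326, minus strand, 3′ UTR), which opens with the pyrimidine tract shown above, had 1.77%, 1.72% and 1.80% at 0 h and 1.61%, 0.659% and 0.724% at 12 h, and kept 88.9%, 21.6% and 26.2%. The mutated companion of Tub oligo 415, from the gene of the tubby protein, had 1.96%, 1.94% and 2.02% at 0 h and 1.77%, 0.766% and 0.824% at 12 h, and kept 87.9%, 29.9% and 33.2%. The relative change was 0.55 ± 0.12 for the former and 0.57 ± 0.14 for the latter.

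On the other side, Soga3 oligo 39 had 1.81%, 1.71% and 1.77% at 0 h and 0.840%, 0.222% and 0.255% at 12 h. It kept 41.9%, 3.06% and 5.15%, less than the median oligo in every library. Sos2 encodes a guanine nucleotide exchange factor that activates Ras. Sos2 oligo 27 (chr12:69585032-69585291, minus strand, not wholly in the 3′ UTR of the annotated transcript), with the AUUUA shown above, had 1.57%, 1.73% and 1.61% at 0 h and 0.748%, 0.241% and 0.264% at 12 h, and kept 39.7%, 5.42% and 6.95%. Sos2 oligo 115 (chr12:69584504-69584763, minus strand, 3′ UTR) had 1.65%, 1.60% and 1.71% at 0 h and 0.992%, 0.246% and 0.283% at 12 h, and kept 55.3%, 4.87% and 7.37%. The relative changes of these 3 were −0.78 ± 0.09, −0.67 ± 0.05 and −0.51 ± 0.11. For all 6 oligos the relative rates at 12 h did not overlap those at 0 h, and all 6 passed once 12 h replicate 1 was left out.

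Oligos that moved most were also chosen after their values were seen, so they carry no test. Wasf3 encodes a WAVE-family regulator of actin assembly. Wasf3 oligo 436 had 2.00%, 2.25% and 2.26% at 0 h and 1.67%, 1.17% and 1.48% at 12 h, and kept 74.6%, 49.0% and 64.9% of its label. Replicate 1 placed it close to the median oligo while replicates 2 and 3 placed it far above. Lrrc47 oligo 105, which holds an AUUUA, had 1.42%, 1.58% and 1.53% at 0 h and 0.852%, 0.156% and 0.111% at 12 h, and kept 51.2%, −0.39% and −3.68%, so that replicates 2 and 3 were below the background rate of 0.163%. Ksr2 oligo 1514, which also holds an AUUUA, kept 59.0%, 5.06% and 3.82%.

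The 3′ UTRs differed in how much label their oligos kept. Spock2, which encodes an extracellular matrix proteoglycan, Wasf3 and Fam219a had the highest median relative changes in all 3 libraries, and Sos2 and Ssc5d the lowest in replicates 2 and 3, followed by Synj2bp and Soga3. The order at the low end changed once the rate without 4SU was subtracted, as given below. The 882 Spock2 oligos had a median relative change of 0.06, 0.27 and 0.27 in the 3 libraries and kept 73.2%, 17.6% and 21.3% of the label. Wasf3 (714 oligos) had 0.06, 0.21 and 0.22 and kept 74.1%, 18.5% and 21.9%, and Fam219a (623 oligos) had 0.04, 0.22 and 0.20 and kept 71.6%, 16.5% and 19.5%. In these 3 UTRs 38.8%, 38.7% and 31.5% of oligos had all 12 h libraries above the 0 h libraries, against 21.5% of all oligos, and 7.48%, 10.1% and 9.31% had them all below, against 18.9%.

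Sos2 (329 oligos) had medians of −0.07, −0.35 and −0.30 and kept 67.2%, 10.4% and 13.5%. Ssc5d (97 oligos) had −0.12, −0.29 and −0.27 and kept 62.9%, 8.48% and 10.7%. Synj2bp, which encodes a protein of the outer mitochondrial membrane, had −0.04, −0.25 and −0.25 over 1002 oligos and kept 68.6%, 11.1% and 13.5%. All 12 h libraries lay below the 0 h libraries for 47.4% of Sos2, 56.7% of Ssc5d and 30.8% of Synj2bp oligos, and above them for 3.34%, 3.09% and 5.89%. Soga3 (92 oligos) with −0.02, −0.26 and −0.22, and Cacna1b, which encodes the pore-forming subunit of the N-type calcium channel, with −0.04, −0.17 and −0.15 over 810 oligos, stood on the same side. Replicate 1 had the same sign as the others in each of these UTRs and a smaller spread between UTRs.

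Diras1 and Lrrc47 stood on the high side, about as far from the pool as Cacna1b on the low side. Diras1, which encodes a small GTPase of the Ras family, had medians of 0.02, 0.19 and 0.17, and Lrrc47 had 0.02, 0.17 and 0.17. The other UTRs had smaller medians in replicates 2 and 3. Kank2 had 0.01, 0.07 and 0.08 with 148 of its 493 oligos above and 115 below (23.3%) without overlap. Kcnj12, an inward-rectifier potassium channel gene, had 0.01, 0.07 and 0.07, and Ksr2, whose protein is a scaffold of the Raf-MEK-ERK pathway, had 0.01, 0.01 and 0.02 over its 2166 oligos. The medians were 0.00, 0.00 and −0.01 for Tub, −0.01, −0.09 and −0.03 for Lars2, the mitochondrial leucyl-tRNA synthetase gene, and −0.06, −0.03 and −0.05 for Fam160b2. With the level of each library set by its pooled rate instead of its median oligo, Kank2, Kcnj12 and Ksr2 turned negative (−0.02, −0.02 and −0.06 averaged over libraries), so their direction is not given. The rate without 4SU moved with the UTRs, from 0.16% in Sos2 to 0.233% in Spock2, and its part in these differences was not tested. With it subtracted from every library, Ssc5d was lowest with −0.15, −0.66 and −0.61. Fam160b2 followed with −0.10, −0.43 and −0.32 and kept 65.2%, 9.94% and 13.1% of its label, so its place near the pool held only without the subtraction. Cacna1b then had −0.05, −0.38 and −0.32, Sos2 −0.06, −0.36 and −0.28 and Synj2bp −0.03, −0.28 and −0.27. At the high end, Wasf3 had 0.08, 0.46 and 0.42, Spock2 0.07, 0.39 and 0.38 and Fam219a 0.03, 0.30 and 0.25.

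**Figure D2:**
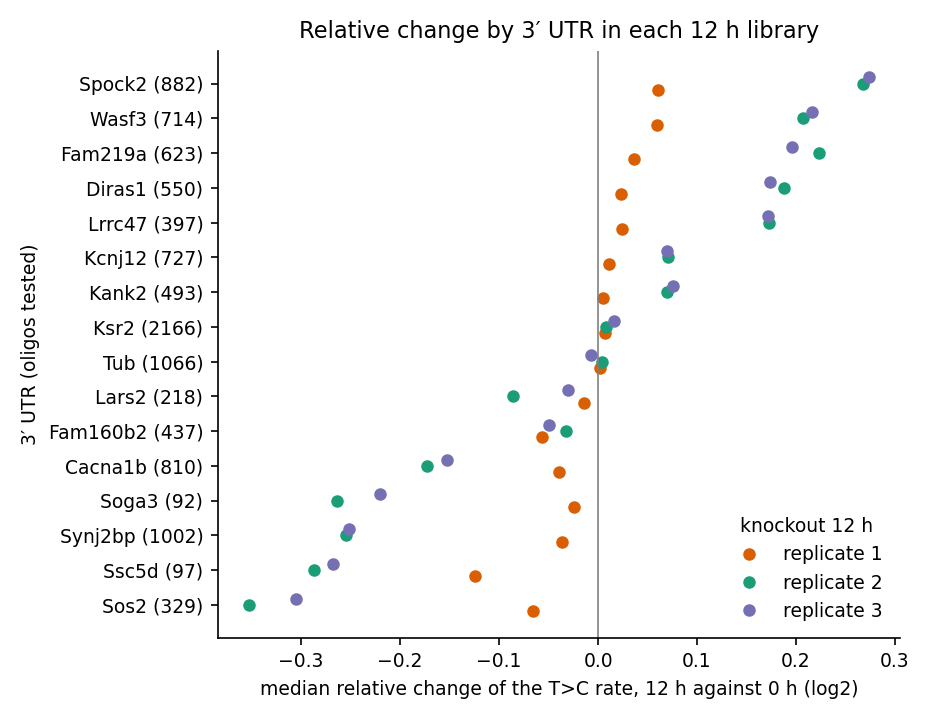
Median relative change (log2, x axis) of the tested oligos of each 3′ UTR (y axis), with 1 point for each knockout 12 h library. Spock2, Wasf3 and Fam219a lie to the right of 0 and Sos2, Ssc5d and Synj2bp to the left in all 3 knockout libraries, with replicate 1 closest to 0 in each.

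Within a UTR, overlapping oligos lost label alike. Endogenous oligos 6 nt apart, which share nearly all their sequence, had Pearson r of 0.41, 0.58 and 0.67 between their relative changes in replicates 1, 2 and 3. The r fell to 0.22, 0.29 and 0.36 at 120 nt and to 0.03, 0.07 and 0.08 at 258 nt, where the oligos share hardly any base. These are correlations across oligos, which are not independent replicates.

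**Figure D3:**
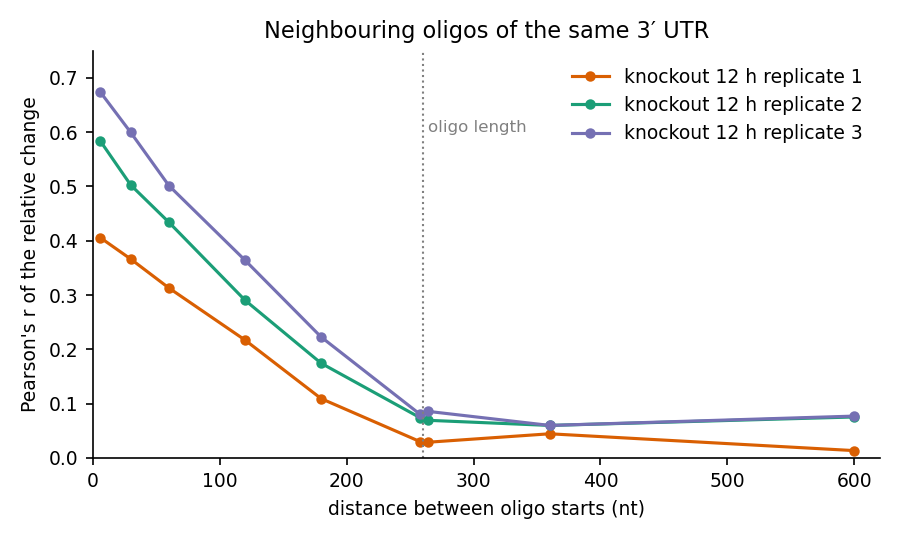
Pearson r across pairs of endogenous oligos (y axis) against the distance between their starts in nt (x axis), with 1 line for each knockout 12 h library. The r falls from 0.41, 0.58 and 0.67 at 6 nt to 0.03, 0.07 and 0.08 at 258 nt, and replicate 1 is the lowest line over that range.

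Endogenous oligos were grouped by their start into windows of 240 nt, so the sequence they cover runs past the window by up to an oligo length. Of 182 windows, 80 had a median above the pool in all 3 libraries, 74 a median below it and 28 mixed signs. The highest window was Wasf3 nt 2401 to 2640, counted from the first tiled base, with 0.08, 0.83 and 0.95, where the oligos kept a median of 75.7%, 35.8% and 44.2% of the label. Its wild-type mean was −0.29, of the opposite sign. Fam219a nt 481 to 720 (0.16, 0.81 and 0.71), Ksr2 nt 8641 to 8880 (0.10, 0.78 and 0.73) and Kank2 nt 481 to 720 (0.13, 0.71 and 0.68) followed, and the last of these holds the pyrimidine tract of Kank2 oligo 114. In wild-type cells these had 0.21, −0.14 and 0.11.

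The lowest window was Synj2bp nt 1201 to 1440, with −0.12, −0.64 and −0.67 and 64.6%, 5.97% and 8.36% of the label kept. Ksr2 nt 2641 to 2880, which holds oligo 445 with its U-rich stretch, had −0.03, −0.63 and −0.69, Sos2 nt 961 to 1200 had −0.09, −0.60 and −0.62, and Ksr2 nt 8161 to 8400 had −0.12, −0.61 and −0.57. Ksr2 thus held windows near both ends of the ranking, nt 8161 to 8400 and nt 8641 to 8880 lying close to each other, while its median over the whole UTR was near 0. The windows were ranked by these same values, so their order is a description.

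**Figure D4:**
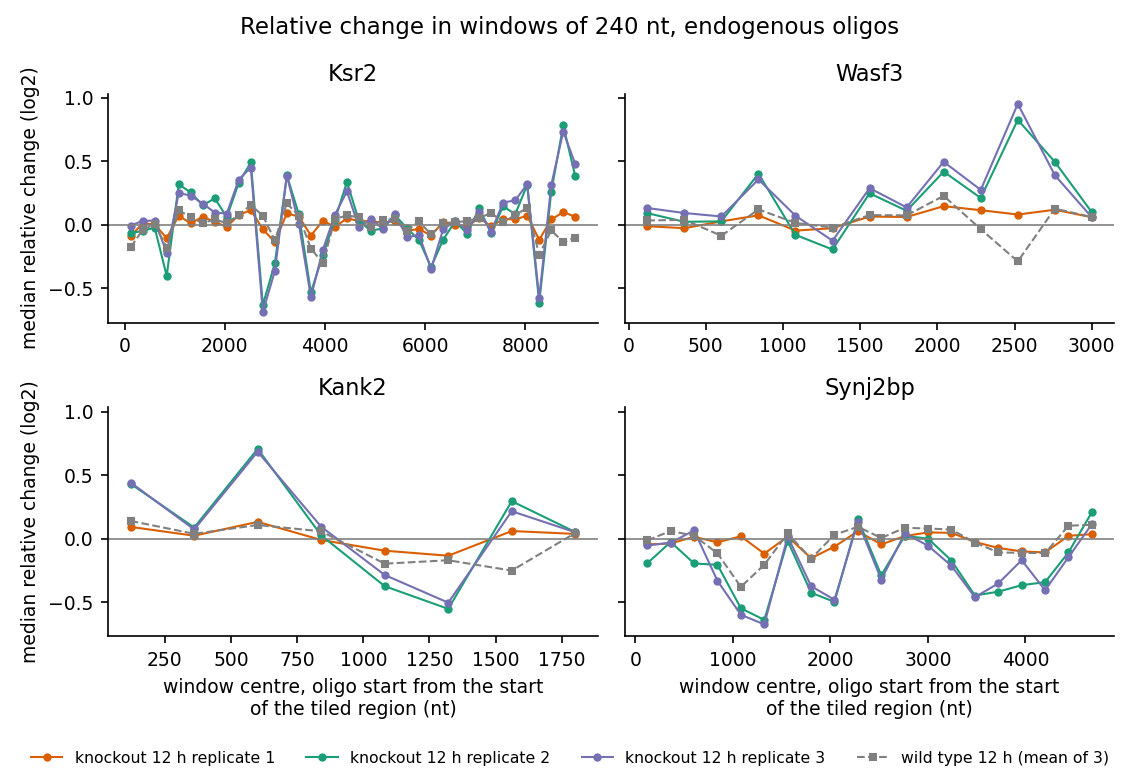
Median relative change (log2, y axis) of endogenous oligos in windows of 240 nt along Ksr2, Wasf3, Kank2 and Synj2bp (x axis, oligo start in nt from the first tiled base), with 1 line for each knockout 12 h library and a dashed line for the wild-type mean. Replicates 2 and 3 run close together, up to 0.83 and 0.95 in Wasf3 and down to −0.63 and −0.69 in Ksr2, and replicate 1 follows them with a smaller amplitude.

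Base composition moved with the relative change in the libraries with little label. Across the 5281 endogenous oligos with sequence, r with G+C content was 0.12, 0.23 and 0.28 in replicates 1, 2 and 3. The 1331 oligos of lowest G+C content (up to 45.8%) had a median of −0.16 in replicate 2, and the 1210 of highest content (55.4% and over) 0.19. Relative change also moved with the rate without 4SU (r of 0.22, 0.42 and 0.44). With that rate subtracted from every library, the r with G+C content was 0.06, 0.04 and 0.11, and the r with the rate without 4SU was 0.10, 0.09 and 0.15. The medians by G+C content still differed after subtraction. They were −0.01, −0.16 and −0.12 for the 1331 oligos of lowest content and 0.02, 0.16 and 0.17 for the 1210 of highest. These groups kept 12.1% and 15.0% of the label in replicate 2.

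Elements known from mRNA decay were counted as letters in the sequence of the mRNA strand, the sole strand searched. AUUUA, the core of AU-rich elements, was in 810 of the 5281 oligos (15.3%), which had medians of −0.01, −0.08 and −0.04 against 0.01, 0.06 and 0.08 for the rest. With the rate without 4SU subtracted, these became 0.00, −0.03 and −0.01 against 0.01, 0.03 and 0.06, and the median G+C content was 43.8% against 51.5%. UUUUU was in 1494 (28.3%), with −0.01, −0.11 and −0.09 against 0.01, 0.09 and 0.11, or −0.00, −0.10 and −0.09 against 0.01, 0.07 and 0.11 after subtraction, and a G+C content of 45.0% against 52.3%. UGUANAUA, the motif of Pumilio proteins, was in 150 (2.84%), with −0.05, −0.30 and −0.34 against 0.01, 0.05 and 0.07. After subtraction these became −0.05, −0.49 and −0.42 against 0.01, 0.03 and 0.06. Those 150 oligos had a median G+C content of 40% against 50.8%. The 150 oligos cover just 4 sites, so they are not 150 observations.

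The 4 sites differed. The 40 Ksr2 oligos over the match at nt 8410 shown above had −0.12, −0.61 and −0.57 and kept 62.9%, 4.65% and 7.46% of the label, where the rest of the endogenous Ksr2 oligos kept 70.6%, 13.7% and 17.1%. The 43 Sos2 oligos over the match at nt 1243 had −0.08, −0.50 and −0.53, against −0.10, −0.32 and −0.24 in the rest of Sos2. They kept 67.0%, 9.75% and 11.95% of the label where the rest kept 65.2%, 9.003% and 13.1%, so that they kept more in replicates 1 and 2, and their G+C content was 28.1% against 41.9%. Most oligos over the Ksr2 match at nt 8410 and the Sos2 match start in low windows of these UTRs given above. Their values are thus not observations separate from those windows. The 42 oligos over the other Ksr2 match, at nt 7106, had 0.02, −0.05 and −0.00, and the 25 over the Fam219a match at nt 2434 had 0.07, 0.30 and 0.20. Oligos over a match thus lay on both sides of the pool.

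Whether the GU-rich motifs bound by TDP-43 moved decay in its absence was asked by comparing classes of oligo and then each motif oligo with its own companion. As classes they differed little as read. Motif oligos had medians of −0.01, −0.02 and −0.01, mutated companions 0.01, 0.03 and 0.02, and oligos without a motif 0.02, 0.05 and 0.07. They kept 69.1%, 12.5% and 15.6%, 70.4%, 14.0% and 16.6%, and 71.1%, 14.4% and 17.6% of the label. With the rate without 4SU subtracted the classes lay further apart, with −0.02, −0.10 and −0.07 for motif oligos, 0.01, 0.06 and 0.02 for companions and 0.02, 0.10 and 0.11 for oligos without a motif. In the wild-type libraries the same values were −0.03, −0.04 and −0.03, 0.02, 0.03 and 0.02, and 0.04, 0.03 and 0.02.

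Over 3881 pairs, the motif oligo minus its companion had a median of −0.02, −0.05 and −0.02. No pair passed an FDR of 0.05: edgeR called 0 with the motif oligo higher (0.0%) and 0 with it lower (0.0%), with 366 at an unadjusted p below 0.05 and a lowest adjusted p of 0.153, and limma called 0. Without knockout 12 h replicate 1, 50 were higher (1.29%) and 211 lower (5.44%). All 12 h libraries lay above the 0 h libraries in 227 pairs (5.85%) and below in 450 (11.6%).

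The difference between motif oligo and companion was larger in pairs with more bases in motifs. It was 0.00, −0.01 and 0.01 in the 1309 pairs with 5 motif bases, −0.03, −0.04 and 0.00 in the 794 with 11 to 20, and −0.03, −0.13 and −0.07 in the 327 with 21 to 40. In the 434 pairs with over 40 it was −0.12, −0.35 and −0.32. The motif oligos of those 434 kept 68.4%, 11.1% and 14.5% of the label and their companions 75.3%, 21.9% and 26.5%. All 12 h libraries lay below the 0 h libraries in 156 of them (35.9%, against 11.6% of all pairs) and above in 16 (3.69%, against 5.85%). The same pairs had −0.28, −0.30 and −0.28 in the wild-type 12 h libraries, where TDP-43 is present.

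Companions of such long stretches hold fewer uridines than their motif oligos. The medians were 116023 T positions for the motif oligos and 25191 for the companions, with 0.20% and 0.23% read as C without 4SU. T positions are summed over reads, so they count read depth as well as uridines. Without 12 h replicate 1 edgeR called 138 of these 434 pairs lower, against 5.44% of all pairs, and with the rate without 4SU subtracted as well limma called 13, of 16 among all 3881 pairs. The part of the difference in uridines was not tested.

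**Figure D5:**
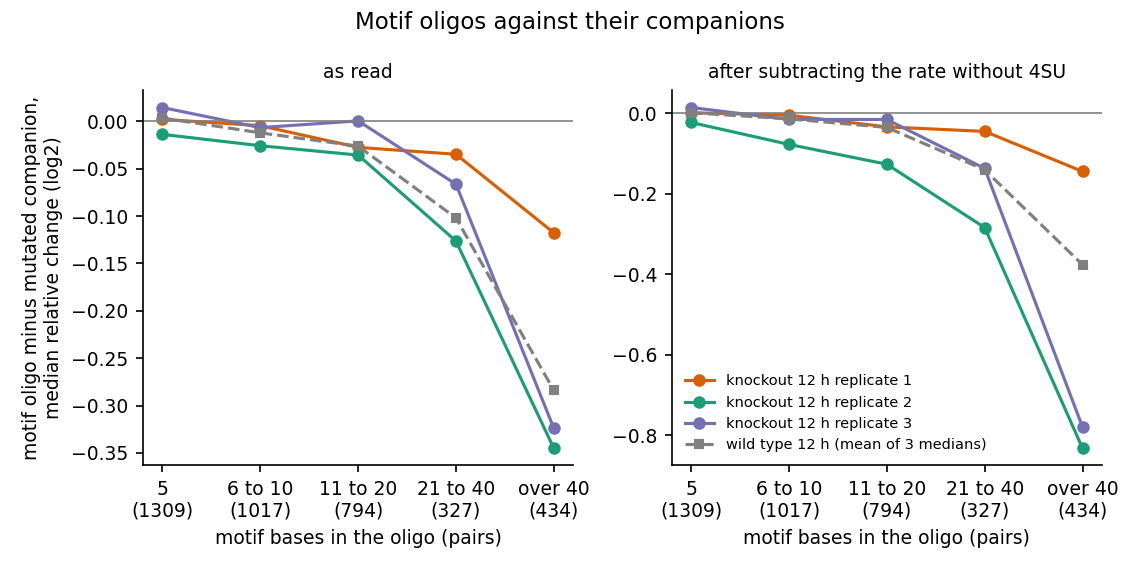
Motif oligo minus mutated companion in relative change (log2, y axis) by number of motif bases (x axis) as the median for each knockout 12 h library and the wild-type mean, as read (left) and after subtracting the rate without 4SU (right). On the left the medians stay near 0 up to 20 motif bases and reach −0.12, −0.35 and −0.32 in the knockout libraries over 40 bases, and on the right they reach −0.14, −0.83 and −0.78.

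The UTRs with long stretches did not move alike. Over 40 motif bases, the 55 Cacna1b pairs had −0.21, −1.01 and −1.01, the 62 Fam160b2 pairs −0.33, −0.73 and −0.64, the 80 Spock2 pairs −0.11, −0.45 and −0.51 and the 50 Fam219a pairs −0.17, −0.46 and −0.46. The 87 Lrrc47 pairs had −0.01, −0.11 and −0.14, the 45 Diras1 pairs −0.02, −0.08 and 0.02, and the 55 Kcnj12 pairs −0.11, 0.18 and −0.02. Pairs from 1 UTR overlap and often share the same GU repeat, so their number is not a number of independent sites.

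Cacna1b oligo 314, with 119 motif bases that include the GU repeat shown above, had T>C rates of 1.21%, 1.22% and 1.30% at 0 h and 0.871%, 0.187% and 0.276% at 12 h. Its companion had 2.53%, 2.72% and 2.76% at 0 h and 3.12%, 1.14% and 1.69% at 12 h, with 0.661% without 4SU against 0.216% for the motif oligo. The pair difference was −0.74, −1.50 and −1.51. In Fam160b2 oligo 199 (111 motif bases) the rates were 0.989%, 1.02% and 1.10% at 0 h and 0.686%, 0.210% and 0.205% at 12 h. Its companion had 3.44%, 3.26% and 3.53% and then 3.79%, 2.55% and 2.74%, against 1.72% without 4SU, so a large part of its reads as C did not come from label. The pair difference was −0.74, −1.88 and −2.02. Both companions had a higher rate at 12 h than at 0 h in replicate 1. Tub oligo 415 (38 motif bases) had 1.76%, 1.84% and 1.88% and then 1.40%, 0.566% and 0.550%, and its difference from the companion described above was −0.22, −0.33 and −0.47. None of these pairs passed the test, with adjusted p of 0.153 to 0.190 by edgeR over the 6 pairs named by lowest p.

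In the opposite direction, Kank2 oligo 271, with the single GUGUG shown above within 10 motif bases, was above its companion by 0.34, 0.58 and 0.57. Synj2bp oligo 732 (11 motif bases) was above by 0.11, 0.63 and 0.44, and Kcnj12 oligo 423 (27 motif bases) by 0.13, 0.45 and 0.44. Pairs were also ordered by the enrichment of the motif oligo on TDP-43 in vitro (RNA bind-n-seq). The 650 with the highest enrichment had medians of −0.03, −0.16 and −0.12, and the 650 with the lowest had −0.03, −0.06 and −0.02. In the wild-type 12 h libraries the highest had −0.12, −0.14 and −0.12 and the lowest −0.02, −0.03 and −0.01.

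Reads came from the ends of the inserts and covered bases 1 to 103 and 172 to 260 of an oligo. An oligo whose motif, or mutated motif, lay wholly in the 68 unread bases cannot be told from its partner by its reads. There were 981 such oligos, and 863 of them were among the 991 that were not tested (87.1%), with a median of 0.5 reads for motif oligos and 0 for companions. For most oligos with motifs in these bases alone, decay was therefore not measured. The 3881 pairs tested still included 54 of this kind, and their values do not separate the motif oligo from its companion.

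The relative change of an oligo in knockout cells moved with that in wild-type cells, with r of 0.38, 0.35 and 0.36 for replicates 1, 2 and 3 against the wild-type mean over 10576 oligos. No oligo passed the test of the difference between knockout and wild type: edgeR called 0 higher (0.0%) and 0 lower (0.0%) in the knockout, with 969 at an unadjusted p below 0.05 and a lowest adjusted p of 0.226, while DESeq2 called 32 higher and 4 lower. Without knockout 12 h replicate 1 the edgeR counts were 1288 higher (12.2%) and 842 lower (7.96%). The wild-type 0 h libraries shared their read length and A-read-as-T rate with knockout 12 h replicates 2 and 3, and the part of this in the counts was not tested.

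The 3 oligos with the lowest p in each direction, none of which passed, went opposite ways in the genotypes. Lrrc47 oligo 64 (98 motif bases) had 1.69%, 1.72% and 1.87% at 0 h and 1.40%, 0.541% and 0.576% at 12 h in the knockout, and 1.65% and 1.54% at 0 h and 0.783%, 0.755% and 0.917% at 12 h in the wild type. Its relative change was 0.11, 0.40 and 0.34 against −0.26, −0.32 and −0.23. Spock2 oligo 273 (58 motif bases) had 0.27, 0.39 and 0.59 against −0.32, −0.16 and −0.47, and Kank2 oligo 267, over the same motif as oligo 271, had 0.13, 0.26 and 0.32 against −0.39, −0.30 and −0.47. The adjusted p was 0.226 by edgeR for each of these 3.

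Fam160b2 oligo 225 (176 motif bases) had 0.954%, 0.885% and 0.895% at 0 h and 0.636%, 0.167% and 0.168% at 12 h in the knockout, with 0.239% without 4SU, and 0.699% and 0.632% and then 0.654%, 0.605% and 0.679% in the wild type. No label was detectable over background in knockout replicates 2 and 3, whereas the wild type kept 97.3%, 85.9% and 103% of it. Ksr2 oligo 445, with the U-rich stretch shown above, had 1.58%, 1.51% and 1.53% and then 1.08%, 0.244% and 0.255% in the knockout, and 1.22% and 1.31% and then 0.966%, 0.863% and 1.10% in the wild type. It kept 65.3%, 2.06% and 2.84% in the knockout and 71.5%, 61.7% and 84.5% in the wild type. The mutated companion of Synj2bp oligo 341 had a relative change of −0.06, −0.83 and −0.80 against 0.47, 0.44 and 0.25. In each of these oligos replicate 1 was much closer to 0 than replicates 2 and 3.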

How the data were processed

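SLAM-seq was done on CAD cells transfected with the reporter pool. Per the authors' methods, cutadapt removed adapters, bowtie2 placed the reads on the oligo sequences and a modified PIGPEN tallied conversions. The deposited tables hold, for each oligo and library, counts of positions by genome base and base read. CAD soma RNA-seq is used as the TPM the authors deposited from Salmon on mm10. No version is given in the sources used here.

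The T>C rate was the count of T read as C over that count plus T read as T. Oligos with 1000 or more T positions in every library used were kept. C and T tallies were fitted with edgeR 4.0.16 (quasi-likelihood, each library with a C and a T column, interaction with time), relative change with the median oligo of each library as its level, pairs and genotypes as further interactions. P-values were Benjamini-Hochberg adjusted over all oligos or pairs tested. limma 3.58.1 (log2 rate, pseudocount 0.5), DESeq2 1.42.0, other minima (300 and 3000), background subtraction, another library level, a replicate block and left-out libraries were the alternatives. The exact permutation test went through every split of the libraries, with numpy 2.4.6. Label kept is the 12 h rate minus the rate without 4SU, over the mean 0 h rate minus the same.

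The oligos named are the 3 with the lowest p in each direction, since none passed, and others are said to be chosen after their values were seen. Members, lists and tests were chosen with earlier results of these data known. On simulated tables in which 200 of 10603 oligos were changed, the fit of relative change recovered 98 of 100 changed 1.5-fold and 100 of 100 changed 2-fold, and called 10 of 10403 unchanged. For knockout against wild type the recovery was 89 of 100 and 99 of 100, with 14 of 10376 unchanged called, and for pairs it was 85 of 100 and 98 of 100, with 9 of 3681. The simulated noise was that between the knockout 0 h libraries, and the changed 12 h libraries all got the same change. In the data the 12 h libraries spread differently (SD of the relative change 0.165, 0.514 and 0.462 in replicates 1, 2 and 3). The recoveries thus do not tell what the tests could find in these libraries. Reads without molecular identifiers are not independent molecules. Oligos of 4 UTRs had no sequence here. All 1074 sequences found in the supplement were identical to those used. The authors' other tables were not used here.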

Additional observations from a re-analysis of the deposited data

Results flagged for a closer look

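In 3 UTRs the median relative change was above 0 in every knockout 12 h library and below 0 in every wild-type 12 h library, and the difference itself was not tested. The 3 knockout values share their 0 h libraries. Diras1 had 0.023, 0.1883 and 0.174 in the knockout and −0.0276, −0.0107 and −0.0129 in the wild type. Lrrc47 had 0.0243, 0.1724 and 0.1712 against −0.0332, −0.0512 and −0.0342. The Kcnj12 values lie close to 0, and its median turned negative with another setting of the library level. Kcnj12 had 0.0115, 0.0705 and 0.0695 against −0.0014, −0.0182 and −0.0185. In each, knockout replicate 1 lay much nearer to the wild type than replicates 2 and 3.

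Outside the T>C measurement, A positions were read as T at 0.08012% in knockout 12 h replicate 2, over 1.5 times the rate in the highest library without 4SU. A 4SU label does not act on A.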

How the results depend on the processing

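The fall of the pooled rate kept its direction under every alternative run, from −1.92 to −1.15 with a library left out, −1.50 by the median oligo, −1.85 after background subtraction and −1.43 with a replicate block. The oligos that fell at an FDR of 0.05 numbered 0 at an FDR of 0.01, 0 with a replicate block, 9971 by limma, 10095 by DESeq2, and 0 to 10570 with a library left out. Relative change gave 0 to 4988 with a library left out, 1011 by DESeq2, 1098 with a replicate block, 344, 5062 and 4726 with knockout 12 h replicate 1, 2 or 3 as the sole 12 h library, and 4613 with background subtraction by limma without replicate 1. Pairs gave 0 to 261, 31 with a replicate block, 1, 522 and 308 with a sole library, and 16 with background subtraction without replicate 1. Knockout against wild type gave 0 to 2130, 36 by DESeq2, 0 with a block, 0, 2189 and 1702 with a sole library, and 3039 with background subtraction without replicate 1. The sole library, background subtraction without replicate 1 and their oligos were chosen after seeing the data, and a sole library is assumed to vary like the other groups. Why the counts moved was not tested. The Tub oligo 430 pair reversed to 0.73 with replicate 1 alone. Of 160 UTR medians under alternatives, 7 changed sign, all in Kank2, Kcnj12, Ksr2 or Tub.

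Same-numbered 0 h and 12 h libraries did not deviate together (correlations −0.012, 0.024 and −0.014), nor did those of different number (−0.027 to 0.044). These values cannot show whether same-numbered libraries came from the same culture, so the fits with a replicate block are given beside those without. At 12 h, depth limits oligos whose rate is near background, above all in replicates 2 and 3.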

Other observations

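The number of GU-rich stretches gave no steady order. Oligos with 3 or 4 stretches (635) had median relative changes of −0.05, −0.10 and −0.10, and those with 5 or more (438) had 0.00, 0.09 and 0.06. After subtraction of the rate without 4SU the latter had −0.02, −0.18 and −0.16, so their direction in replicates 2 and 3 depends on the background. In wild-type cells they had −0.11, −0.13 and −0.12.

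A high rate without 4SU went with a rise in relative change. Relative change as read includes that rate, which stays while label falls. Such oligos thus rise against the median oligo by construction, and their calls say nothing of their decay. Of the tested oligos, 25 had over 1% of T positions read as C without 4SU, of which 24 were mutated companions and 20 came from Fam160b2. Without knockout 12 h replicate 1, 24 of the 25 were among the 2725 called higher by edgeR, which made up 25.7% of all 10603 tested.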
